A study of Macaca fascicularis and Macaca mulatta and Papio anubis with 20 samples.

Results

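PVALB-high and SCN11A-high spots were small regions of Macaca fascicularis dorsal root ganglion sections with a high level of one of these sensory neuron genes. The sections were profiled with Visium, in which barcoded spots on a slide capture polyadenylated RNA that is counted as unique molecular identifiers (UMIs). A spot is a region and not a cell: it can hold several cells of different types, or part of one. Spots over tissue with at least 1000 UMIs were eligible. Within each section, a spot was called PVALB-high when its PVALB level, in UMIs per 10000 UMIs of that spot, was above 0 and at or above the 95th percentile of the eligible spots. SCN11A-high spots were chosen in the same way from SCN11A. Of 11090 eligible spots, 561 were PVALB-high and 560 were SCN11A-high, together 10.1%. A further 3 spots met both criteria and were left out, and the other 9966 are called remaining spots.

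The series holds 20 samples of primate dorsal root ganglia under 3 species labels, with 32952 tissue spots in the sections that have a count matrix. The 15 M. fascicularis sections used here hold 21897 of them and carry 4 codes in their titles: a female and a male code in batch 1, and a female and a male code in batch 2. Each code was treated as 1 specimen, which the labels do not state. Codes had 4 sections each, except male batch 2 with 3, the other section of which was not analysed here. The ganglia were bought fresh frozen from a commercial primate supplier, cut at 10 µm with sections 100 µm apart, stained with haematoxylin and eosin and permeabilised for 12 min, and the labels used here name no treatment, genotype or age. Spots of 1 section share a library and sections of 1 code share a specimen, so UMIs were summed per code and kind of spot. The gene tests judge a difference against the spread between these 4 codes, estimated with information shared across genes. Their p-values therefore do not rest on the spread of the single gene alone.

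Dorsal root ganglia hold the cell bodies of the neurons that carry touch, body position, temperature, itch and pain to the spinal cord. Parvalbumin, the product of PVALB, buffers calcium and is a classical marker of large, fast-conducting, myelinated neurons, above all the proprioceptors that report muscle stretch. SCN11A encodes NaV1.9, a tetrodotoxin-resistant sodium channel of small nociceptors, most of them with thin or unmyelinated axons.

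PVALB (ENSMFAG00000043667) and SCN11A (ENSMFAG00000041137) were the genes whose measured levels the spots were chosen by, so their own levels are given as a description only. The section threshold for PVALB ran from 6.02 to 28.0 UMIs per 10000 with a median of 15.7, and that for SCN11A from 6.14 to 18.5 with a median of 10.6. The lowest PVALB-high spot of a section lay between 6.02 and 28.0, and the highest spot left below the threshold between 5.90 and 27.98. The corresponding ranges were 6.15 to 18.6 and 6.13 to 18.4 for SCN11A, so the spots on either side of a threshold were close in level. The section median of marker UMIs per chosen spot was 2 to 34 for PVALB and 2 to 20.5 for SCN11A, and 5 PVALB-high and 38 SCN11A-high spots rested on 1 marker UMI.

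In CPM, the UMIs of a gene scaled to a total of 1000000 UMIs of the summed spots, with the codes always in the order female batch 1, male batch 1, female batch 2 and male batch 2, PVALB stood at 2168, 2409, 2421 and 1801 in PVALB-high spots. It stood at 109, 126.8, 100.5 and 53.2 in SCN11A-high spots, and at 281 ± 108 (SD, n = 4) in the remaining spots. SCN11A stood at 1352, 1746, 928 and 1459 CPM in SCN11A-high spots, at 102, 140.2, 48.8 and 145 in PVALB-high spots, and at 295 ± 112 in the remaining spots. Each kind of spot therefore held less of the other marker than the remaining spots did, but was not free of it. A section's PVALB-high spots had an SCN11A UMI in 8.57% to 70.0% of cases (median 36.1%), against 23.6% to 79.6% (median 45.3%) of the remaining spots. Its SCN11A-high spots had a PVALB UMI in 11.4% to 58.2% of cases (median 31.4%), against 17.7% to 66.5% (median 46.4%). In sums over mixed spots, a lower level of a gene can come from fewer cells of a type or from less RNA per cell, and these cannot be told apart.

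**Figure D1:**
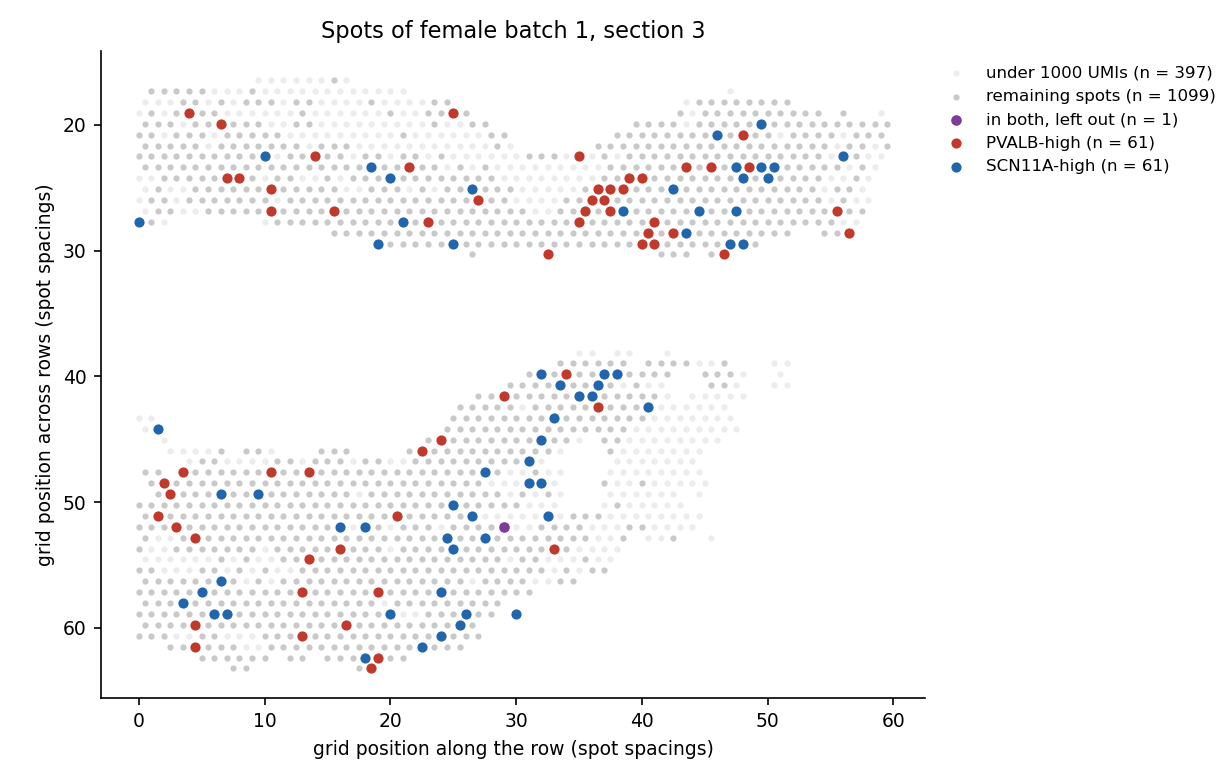
Positions of the spots of the section with the most chosen spots, female batch 1 section 3, in units of spot spacing along both axes; red points are the 61 PVALB-high spots, blue points the 61 SCN11A-high spots, purple the 1 spot in both, and grey the 1099 remaining spots and, paler, the 397 under 1000 UMIs. Both kinds of chosen spot lie scattered through the same pieces of tissue.

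The sections held 1136433 to 7073134 UMIs over 596 to 2587 tissue spots, with a section median of 398 to 5145 UMIs per tissue spot. The summed PVALB-high spots of a code held 316403 to 1505177 UMIs and the summed SCN11A-high spots 225454 to 1277688, the lowest in both cases being male batch 2. That code also stood apart in SOD2, a mitochondrial superoxide dismutase, at 3581 CPM in PVALB-high and 3287 CPM in SCN11A-high spots against 153 to 419 in the other codes. General neuronal genes (STMN2, TUBB3, THY1) and glial genes (PMP22, FABP7) of a sensory ganglion were measured in both kinds of spot. Some defining genes were sparse in both: SCN10A, the NaV1.8 channel of nociceptors, had 5 UMIs in all PVALB-high and 17 in all SCN11A-high spots, and NTRK3, the neurotrophin-3 receptor of proprioceptors, had 10 and 3.

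Some properties of the spots were measured beside the genes. Spot UMIs are the denominator of the rule, so they are given as a description with no test. Median UMIs per spot, averaged over sections and then codes, were 5880 ± 2267 in PVALB-high and 4707 ± 2024 in SCN11A-high spots (SD, n = 4), higher in PVALB-high spots in 4 of 4 codes and 11 of 15 sections. With spots chosen at the 90th percentile they were 5527 ± 2150 and 5006 ± 2151, higher in PVALB-high spots in 2 of 4 codes and 7 of 15 sections. Of all tissue spots touching a PVALB-high spot, those under 1000 UMIs included, 9.98% ± 0.569 were PVALB-high too, against 6.19% ± 2.31 for SCN11A-high spots among their own kind. These shares also describe the chosen labels and are not tested. That order held in 4 of 4 codes, and in 3 of 4 with a minimum of 2000 UMIs per spot or at the stricter percentile tried. At an equal depth of 1000 UMIs, PVALB-high spots showed 709 ± 12.8 genes, SCN11A-high spots 718 ± 16.7 and remaining spots 715 ± 17.6. PVALB-high spots were lower than SCN11A-high spots in 4 of 4 codes. The two-sided exact sign-flip test over the 4 codes gave p = 1/8, the smallest p that 4 codes allow, so it could not pass 0.05. PVALB-high spots lay 3.31 ± 1.06 spot steps from the tissue edge, SCN11A-high spots 3.87 ± 0.743 and remaining spots 3.30 ± 0.588. PVALB-high spots were nearer the edge than SCN11A-high spots in 4 of 4 codes (exact p again at that minimum). With the minimum of 2000 UMIs, or at the stricter percentile, they were nearer in 3 of 4 codes (exact p 0.25 and 0.375).

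Beyond the markers that chose them, the spots differed in a large share of the genes measured. Of 7717 features with enough counts, 2597 (33.7%) had an adjusted p under 0.05 in the quasi-likelihood test of edgeR, with the code as a block and adjustment by Benjamini-Hochberg. Of these, 1410 (18.3% of those tested) were higher in PVALB-high and 1187 (15.4%) higher in SCN11A-high spots, and the median log2 fold change of all tested features was -0.0033. Log2 fold changes are PVALB-high over SCN11A-high throughout, and "called" means an adjusted p under 0.05 in this test. In 4 of 4 codes PVALB-high was above for 1369 features (17.7%) and SCN11A-high for 1981 (25.7%). Levels of the 4 codes did not overlap for 631 features (8.18%) with PVALB-high above and 748 (9.69%) with SCN11A-high above. Scaling by library size alone called 2722 features, 42.4% of them higher in PVALB-high spots against 54.3% in the reported fit. Fewer features were called without the block (1086), by DESeq2's Wald test (1448), within batch 2 (962), and with every spot thinned to 1000 UMIs before (497) or after (594) the spots were chosen.

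**Figure D2:**
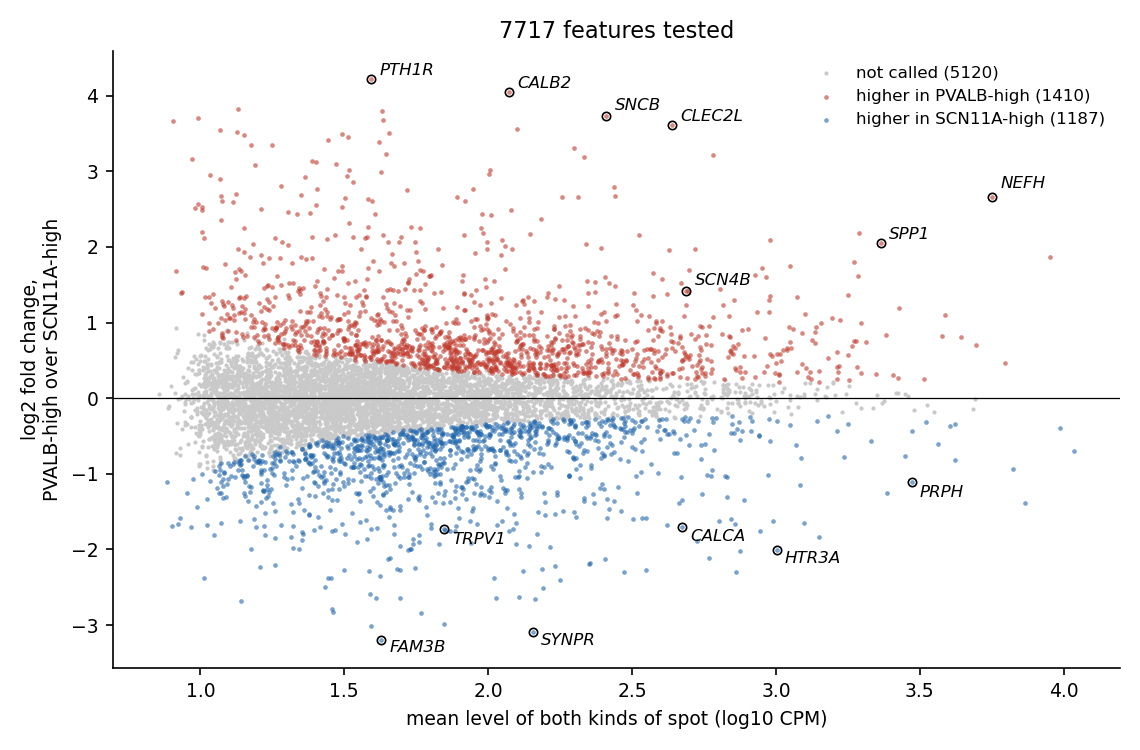
Log2 fold change of PVALB-high over SCN11A-high spots against the mean level of both (log10 CPM) for the 7717 features tested; red points are the 1410 called higher in PVALB-high, blue the 1187 called higher in SCN11A-high, and grey those not called. Calls in both directions run over the whole range of levels.

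The named genes were the 12 with the greatest fold change in each direction among called genes with a symbol, the same direction in 4 of 4 codes and a mean of at least 20 CPM in the higher kind of spot. Those higher in PVALB-high spots were PTH1R, CALB2, CNTNAP4, FGF11, SNCB, TESC, CLEC2L, HOPX, INHBB, RELT, ZNF385A and PRSS56, with log2 fold changes from 3.48 to 4.22. Their levels did not overlap between the kinds of spot in 12 of 12 genes, against 8.18% of all features tested, and each was higher in at least 13 of 15 sections. The rule that picked these genes from the same counts favours both, so they are given as a description only. PTH1R (ENSMFAG00000033228), the receptor for parathyroid hormone and its related peptide, stood at 76.9, 105, 66.4 and 44.3 CPM in PVALB-high spots and at 5.84, 3.13, 3.97 and 8.87 CPM in SCN11A-high spots. Every PVALB-high value was far above every SCN11A-high value, and the log2 fold change was 4.22 (SE 0.28, edgeR adjusted p 1.01e-15). CALB2 (ENSMFAG00000045637), which encodes calretinin, a calcium-binding protein of the same family as parvalbumin, stood at 205, 225, 314 and 142 CPM against 11.7, 14.1, 22.5 and 8.87. The female batch 2 code was highest in both kinds of spot and the male batch 2 code lowest, and the log2 fold change was 4.05 (SE 0.17, edgeR adjusted p 9.07e-22).

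SNCB (ENSMFAG00000033893), the synaptic protein beta-synuclein, stood at 522, 488, 552 and 354 CPM against 47.7, 33.7, 51.6 and 13.3, for which the log2 fold change was 3.73 (SE 0.13, edgeR adjusted p 1.39e-23). CLEC2L, a C-type lectin-like membrane protein, stood at 759, 880.3, 1001 and 544 CPM against 65.2, 72.8, 80.6 and 75.4 (log2 fold change 3.61, SE 0.12, edgeR adjusted p 1.10e-24). Both separated the kinds of spot in every code, and SCN11A-high spots of the 4 codes lay close together for CLEC2L. FGF11, an intracellular relative of the fibroblast growth factors that binds voltage-gated sodium channels, stood at 90.9, 93.0, 93.7 and 41.1 CPM against 5.84, 8.61, 5.29 and 4.44 (log2 fold change 3.80). Its male batch 2 value was the lowest of the PVALB-high spots and still above every SCN11A-high value.

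The other named genes of this direction were TESC (80.6 ± 27.9 against 5.53 ± 3.95 CPM), which encodes the calcium-binding protein tescalcin, and HOPX (233 ± 79.5 against 18.6 ± 10.2 CPM), an atypical homeodomain protein that binds no DNA itself. RELT, of the tumour necrosis factor receptor family, stood at 82.5 ± 28.2 against 7.85 ± 2.56 CPM, and ZNF385A, a zinc finger protein, at 57.1 ± 10.7 against 4.79 ± 4.37. The least abundant of the 12 were PRSS56, a serine protease (26.2 ± 12.6 against 2.26 ± 1.72 CPM), CNTNAP4, a contactin-associated cell adhesion protein (24.7 ± 4.52 against 2.23 ± 1.89), and INHBB, the beta B subunit of inhibins and activins (20.4 ± 8.24 against 3.05 ± 4.00). All 12, which were picked for large fold changes in the same counts, stayed called in every one of the 37 alternatives in which they could be tested.

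The 12 higher in SCN11A-high spots included FAM3B, SYNPR, PTGDR, PRKCD, MMD, TMEM233, CPNE5, LPO, DAPK1, TBC1D2 and PLCB3, with log2 fold changes from -3.20 to -2.52. Levels did not overlap in 10 of 12 genes, PTGDR and TBC1D2 being the exceptions, against 9.69% of all features tested. Each was higher in at least 14 of 15 sections, and the rule that picked the genes favours both here too. FAM3B (ENSMFAG00000033710), a secreted cytokine-like protein, stood at 81.8, 104, 71.4 and 53.2 CPM in SCN11A-high spots and at 6.99, 15.3, 2.93 and 3.16 in PVALB-high spots, for which the log2 fold change was -3.20 (SE 0.24, edgeR adjusted p 4.25e-14). SYNPR (ENSMFAG00000039535), which encodes the synaptic vesicle protein synaptoporin, stood at 175, 226, 361 and 253 CPM against 21.0, 29.2, 18.5 and 60.1 (log2 fold change -3.10, SE 0.17, edgeR adjusted p 1.86e-17). In both genes all SCN11A-high values lay above all PVALB-high values.

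PRKCD, a protein kinase C isoform, stood at 125 ± 49.7 CPM in SCN11A-high spots against 15.5 ± 3.88 in PVALB-high spots (log2 fold change -2.98). PLCB3, a phospholipase C that couples G-protein receptors to calcium release, stood at 242, 301, 208 and 293 CPM against 35.8, 49.8, 24.4 and 85.3 (log2 fold change -2.52, SE 0.14, edgeR adjusted p 2.16e-17), with no overlap. PTGDR, a prostaglandin D2 receptor, stood at 103, 106, 14.5 and 44.4 CPM against 10.5, 7.97, 1.95 and 25.3 (log2 fold change -3.02). The SCN11A-high level of the female batch 2 code was low for PTGDR and overlapped the PVALB-high level of male batch 2, and PTGDR was not called within batch 2 alone.

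Further named genes of this direction were TMEM233, a membrane protein associated with voltage-gated sodium channels (50.3 ± 8.44 in SCN11A-high against 6.85 ± 3.78 CPM in PVALB-high spots), CPNE5, a calcium-dependent phospholipid-binding copine (252 ± 75.1 against 39.4 ± 5.26), and DAPK1, a calmodulin-regulated death-associated kinase (219 ± 53.9 against 36.4 ± 17.5). MMD, a multipass membrane protein, stood at 104 ± 17.5 against 13.4 ± 5.62 CPM and TBC1D2, a Rab GTPase-activating protein, at 64.2 ± 35.6 against 13.4 ± 8.56. LPO, which encodes lactoperoxidase, stood at 54.5, 48.5, 132 and 39.9 CPM against 5.24, 7.31, 18.5 and 19.0, so that the female batch 2 code was high among SCN11A-high spots.

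Of the genes that mark large-fibre neurons, most of those with enough counts were higher in PVALB-high spots. Of 21 measured members of the large-fibre list, 9 could be tested, and ESRRB and HAPLN4 were at 0 in both kinds of spot. Of the 9, 8 were called higher in PVALB-high spots, against 18.3% of all features tested, and 1 higher in SCN11A-high spots. Their median log2 fold change was 2.05. The filter on low counts keeps a gene with enough counts in either kind of spot alone. A sparse gene can therefore pass through the kind where it is higher. The list was also chosen with earlier results of these data known, so these counts are a description only. Both limits hold for every gene list below. SPP1, the secreted glycoprotein osteopontin, stood at 4804, 5631, 2582 and 1801 CPM in PVALB-high spots and at 1023, 1228, 754 and 661 in SCN11A-high spots (log2 fold change 2.05). Batch 1 codes were higher than batch 2 codes in both kinds of spot, and the kinds did not overlap. RUNX3, a transcription factor of proprioceptor development, stood at 53.3, 41.2, 42.0 and 28.4 CPM against 2.92, 8.61, 7.93 and 0 (log2 fold change 2.93, SE 0.30, edgeR adjusted p 1.42e-10). ETV1, another transcription factor needed by proprioceptors, stood at 92.6, 122, 55.6 and 41.1 CPM against 32.1, 32.9, 18.5 and 13.3 (log2 fold change 1.79), without overlap. VSNL1, the neuronal calcium sensor visinin-like 1 (1086 ± 286 against 125 ± 33.1 CPM, log2 fold change 3.21), and VAMP1, the vesicle fusion protein synaptobrevin-1 (1336 ± 320.0 against 455 ± 144, log2 fold change 1.72), were also higher, as were CALB2 and CLEC2L.

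PIEZO2, the mechanically gated channel of touch receptors and proprioceptors, was the member that went the other way. It stood at 24.5, 37.2, 43.0 and 25.3 CPM in PVALB-high spots and at 41.9, 74.4, 67.4 and 31.0 in SCN11A-high spots, higher in SCN11A-high spots in 4 of 4 codes although the ranges overlapped (log2 fold change -0.71, SE 0.18, edgeR adjusted p 0.00192). In the remaining spots it stood at 43.5 ± 5.83 CPM. PIEZO2 is thus a member of the large-fibre list by its textbook role that these spots did not place with PVALB.

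Most nociceptor genes with enough counts were higher in SCN11A-high spots. Of 28 measured channels and receptors of the nociceptor list, 10 could be tested. Of these, 8 were called higher in SCN11A-high spots, against 15.4% of all features tested, and 0 higher in PVALB-high spots. Their median log2 fold change was -1.74. The limits given for the large-fibre list hold here too, so these counts are a description only. TRPV1, the heat- and capsaicin-gated channel, stood at 100.3, 73.6, 190.4 and 62.1 CPM in SCN11A-high spots and at 27.1, 35.9, 16.6 and 56.9 in PVALB-high spots (log2 fold change -1.73, SE 0.23, edgeR adjusted p 9.14e-08). The kinds did not overlap, but in male batch 2 the values were close. SCN9A, the NaV1.7 channel required for pain in humans, stood at 45.8, 29.0, 35.7 and 57.7 CPM against 10.5, 6.64, 5.86 and 44.2 (log2 fold change -1.74), with the male batch 2 PVALB-high value standing apart from the other 3 and overlapping the SCN11A-high range. RET, the receptor tyrosine kinase for the glial cell line-derived neurotrophic factor family, stood at 481 ± 176 against 156 ± 39.4 CPM (log2 fold change -1.60), and its co-receptors GFRA2 (200.4 ± 74.4 against 50.3 ± 15.4) and GFRA3 (74.3 ± 24.5 against 31.3 ± 17.7) were higher in SCN11A-high spots too. CHRNA3, a nicotinic acetylcholine receptor subunit (log2 fold change -2.35), was called higher in SCN11A-high spots as well, as was PTGDR.

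ASIC3, an acid-sensing channel, was tested and not called. It was at a log2 fold change of -0.25 (edgeR adjusted p 0.565, SE 0.30) and lay lower in both kinds of spot than in the remaining spots (16.9 ± 7.01, 21.7 ± 9.81 and 37.7 ± 19.98 CPM).

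Among nociceptor peptides and related enzymes, 9 of 10 tested members were called higher in SCN11A-high spots and 0 higher in PVALB-high spots. Over all features tested these shares were 15.4% and 18.3%. The median log2 fold change of the list was -1.64. CALCA, which encodes calcitonin gene-related peptide, stood at 712, 686, 788 and 643 CPM in SCN11A-high and at 177, 213, 126 and 430 in PVALB-high spots (log2 fold change -1.70, SE 0.15, edgeR adjusted p 3.46e-12). The kinds did not overlap, and the male batch 2 PVALB-high value was the highest of its kind. CALCB, its close paralogue, whose reads may not be fully separable from those of CALCA, stood at 1468 ± 173 against 490.4 ± 218 CPM (log2 fold change -1.62). TAC1, the precursor of substance P, stood at 874, 869, 619 and 1264 CPM against 448, 455, 165 and 705 (log2 fold change -1.04), with overlap between codes although SCN11A-high was higher in 4 of 4. SST, the peptide somatostatin of itch neurons, stood at 191 ± 95.3 against 58.8 ± 38.4 CPM (log2 fold change -1.66), and CD55, a complement regulator, at 1104 ± 426 against 441 ± 284 (-1.35). GNA14, a G-protein subunit (-2.28), SYNPR, TMEM233 and KCNIP2, a potassium channel-interacting protein (-0.75), were the other called members, and JAK1 had a log2 fold change of -0.18 (edgeR adjusted p 0.208).

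Of 21 measured members of the sensory transcription factor list, 5 could be tested. Of the 5, 4 were called higher in SCN11A-high and 0 higher in PVALB-high spots, against 15.4% and 18.3% of all features tested. That list leaves out RUNX3 and ETV1, transcription factors counted in the large-fibre list, which were higher in PVALB-high spots. ISL2, a LIM homeodomain factor of sensory neurons, stood at 389.5 ± 32.0 CPM in SCN11A-high and 129 ± 35.0 in PVALB-high spots (log2 fold change -1.59). TLX3, a homeobox factor of sensory neurons, stood at 148 ± 27.2 against 83.8 ± 12.8 CPM (-0.71), and EBF1 and KLF7 had log2 fold changes of -1.29 and -1.03. ZEB2 was not called (-0.43, edgeR adjusted p 0.109).

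**Figure D3:**
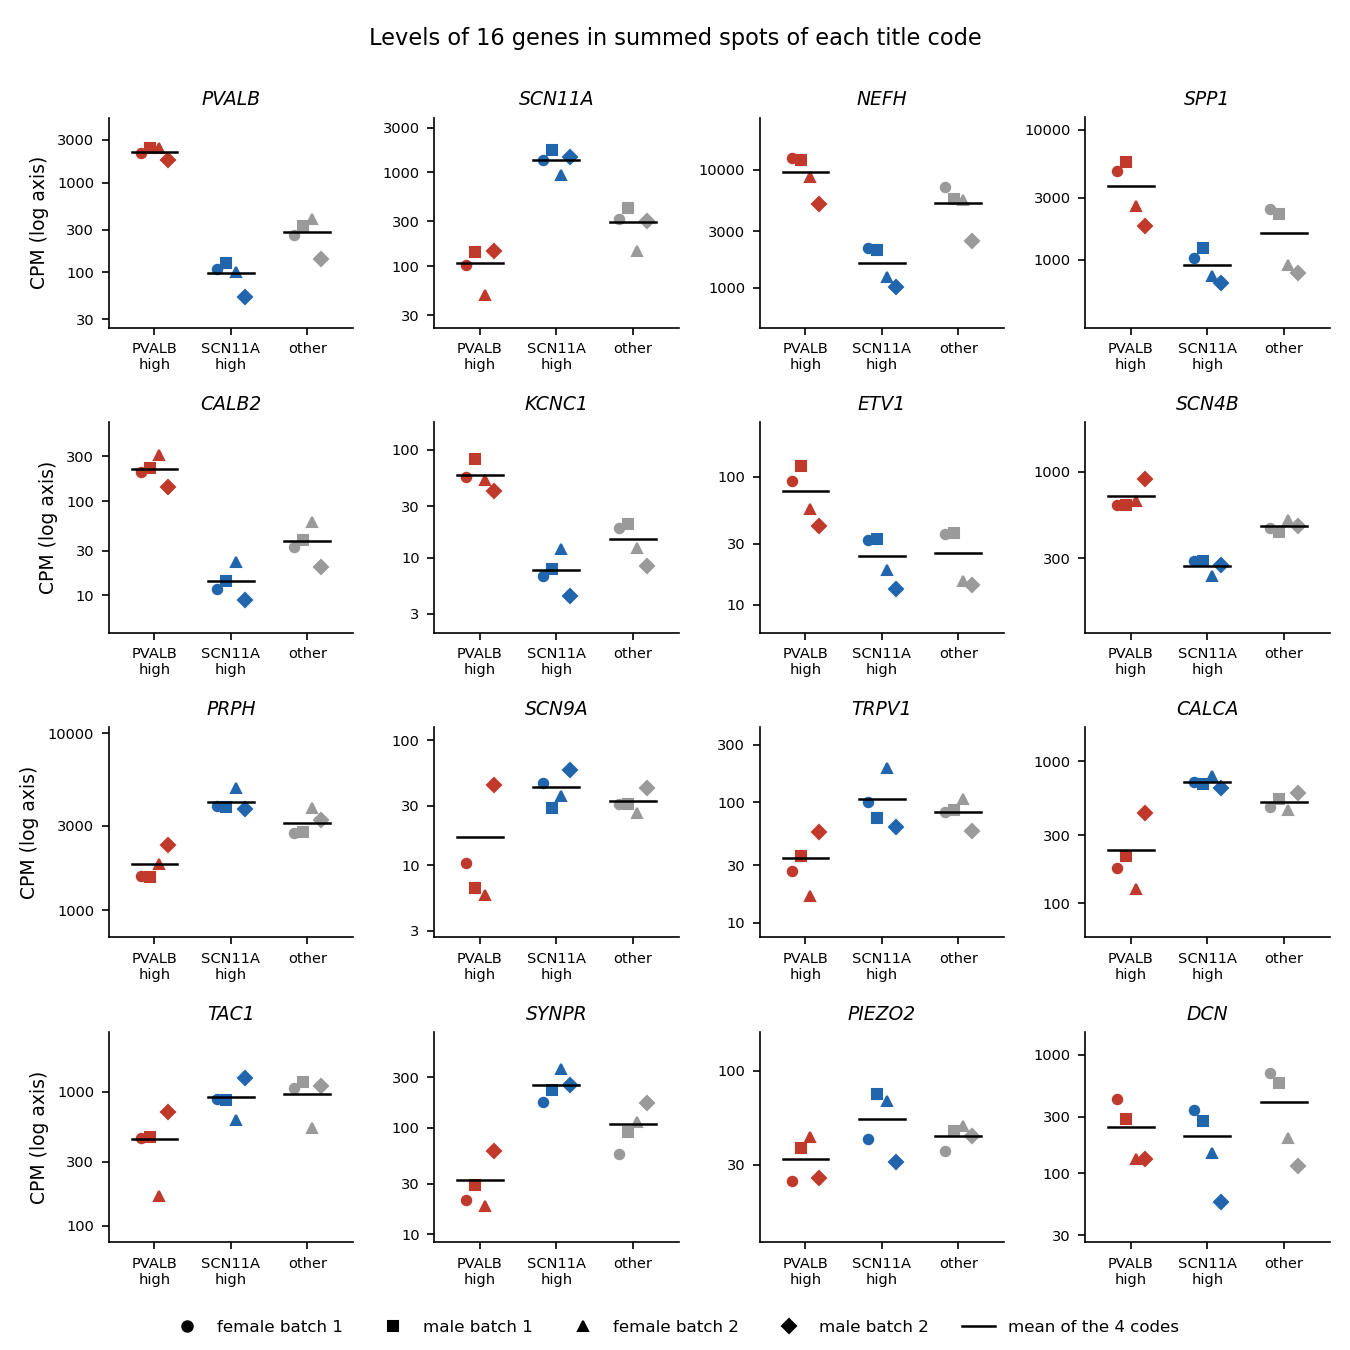
Levels in CPM on a log axis of 16 genes in PVALB-high spots (red), SCN11A-high spots (blue) and remaining spots (grey, marked other), 1 point per title code with the symbol giving the code, and a line at the mean of the 4 codes. NEFH, SPP1, CALB2 and ETV1 lie above in PVALB-high spots in every code, PRPH, TRPV1 and CALCA above in SCN11A-high spots, and KCNC1 above in PVALB-high spots; DCN, a fibroblast gene, was not called between the kinds of spot.

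The neurofilaments and peripherin separated the spots in opposite directions. NEFH (ENSMFAG00000043930), the heavy neurofilament chain of large myelinated neurons, stood at 12610, 12102, 8744 and 5161 CPM in PVALB-high spots and at 2179, 2078, 1239 and 1011 in SCN11A-high spots (log2 fold change 2.66, SE 0.09, edgeR adjusted p 5.03e-25). NEFL, the light chain, stood at 13929 ± 3478 against 4065 ± 1026 CPM (log2 fold change 1.87). PRPH (ENSMFAG00000050077), the filament of small sensory neurons, stood at 1559, 1545, 1834 and 2329 CPM against 3907, 3840, 4930 and 3739 (log2 fold change -1.11, SE 0.09, edgeR adjusted p 1.09e-12), and INA, alpha-internexin, had a log2 fold change of -0.54. None of NEFH, NEFL and PRPH overlapped between the kinds of spot.

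Sodium channel genes split by member. Of 6 tested, 4 were called higher in PVALB-high and 2 higher in SCN11A-high spots, against 18.3% and 15.4% of all features tested. SCN4B, an auxiliary beta subunit of sodium channels, stood at 629.9, 630.5, 665 and 901 CPM in PVALB-high spots against 287, 289, 234 and 271 in SCN11A-high spots (log2 fold change 1.42), with male batch 2 high. FGF12, which like FGF11 binds sodium channels, was at 61.6 ± 28.7 against 17.7 ± 13.3 CPM (1.82). SCN9A and SCN2B, another beta subunit (-0.85), were higher in SCN11A-high spots.

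Of 12 potassium channel genes tested, 6 were called higher in PVALB-high and 5 in SCN11A-high spots, against 18.3% and 15.4% of all features tested. KCNC1, which encodes Kv3.1, a channel of fast-spiking neurons, stood at 55.9, 81.7, 52.7 and 41.1 CPM in PVALB-high and at 6.82, 7.83, 11.9 and 4.44 in SCN11A-high spots (log2 fold change 3.02, SE 0.25, edgeR adjusted p 8.21e-13). KCNC4, of the same Kv3 family, stood at 90.4 ± 4.63 against 14.0 ± 1.39 CPM (2.75). KCNK1, a leak channel (2.66), KCNS3, a modulatory subunit (1.92), and KCNH2, the ERG channel (1.71), were also higher in PVALB-high spots. In SCN11A-high spots, KCNN2, a calcium-activated channel (248 ± 77.1 against 60.0 ± 31.9 CPM, -2.25), KCNIP4, a Kv4-interacting protein (279 ± 37.8 against 62.5 ± 22.1, -2.22), KCNIP2 and KCNAB2 (-0.34) were higher. KCNK18, the leak channel TRESK, stood at 14.6, 20.4, 50.2 and 4.44 CPM against 0.874, 3.32, 3.91 and 12.6 (log2 fold change -2.68), and male batch 2 ran opposite to the other 3 codes.

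Of 4 tested calcium channel genes, 3 were called higher in SCN11A-high and 0 higher in PVALB-high spots, against 15.4% and 18.3% of all features tested. The 3 were the auxiliary subunits CACNA2D2 (log2 fold change -2.28), CACNB1 (-1.80) and CACNB3 (-0.79). CACNA2D3 was at 105 ± 33.6 in PVALB-high and 97.4 ± 16.2 CPM in SCN11A-high spots and was not called. Receptors for amino acid transmitters and protons divided equally, with 4 of 12 called in each direction and a median of -0.05. These calls stand against the same shares of all features. GRIA4 (1.70) and GRIN1 (1.43), glutamate receptor subunits of the AMPA and NMDA types, GLRB, the glycine receptor beta subunit (1.62), and GRM4, a metabotropic glutamate receptor (1.18), were higher in PVALB-high spots. The kainate receptor subunits GRIK1 (-1.73) and GRIK4 (-1.52) and the GABA-A receptor subunit GABRA5 (-0.90) were higher in SCN11A-high spots.

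Of 13 calcium-binding and calcium-handling genes tested, 7 were called higher in PVALB-high and 3 in SCN11A-high spots, against 18.3% and 15.4% of all features tested. ATP2B2 and ATP2B4, plasma membrane calcium pumps, went in opposite directions: ATP2B2 stood at 106 ± 27.6 against 28.3 ± 3.28 CPM (log2 fold change 1.97) and ATP2B4 at 89.4 ± 17.4 against 273 ± 39.5 (-1.49). S100A10, a partner of annexin A2, stood at 4403 ± 721 against 8962 ± 1292 CPM (-0.94).

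Synaptic and secretory genes also split. Of 20 tested, 10 were called higher in PVALB-high and 7 higher in SCN11A-high spots, against 18.3% and 15.4% of all features tested. SNAP25, a component of the vesicle fusion machinery, stood at 2856 ± 705 against 876 ± 162 CPM (log2 fold change 1.80), SV2B, a vesicle glycoprotein, at 204 ± 47.0 against 35.8 ± 15.6 (2.49), and CHGA, the granule protein chromogranin A, at 253 ± 16.6 against 52.6 ± 3.92 (2.37). SCG3, another granule protein, stood at 340 ± 79.1 against 1105 ± 142 CPM (-1.67). SLC17A6, the vesicular glutamate transporter VGLUT2, was higher in SCN11A-high spots (-0.49). Of 15 axonal transport genes, 7 were higher in PVALB-high spots, led by MAP7D2 (1.58) and MAP1A (1.30), both microtubule-associated, and 3 were higher in SCN11A-high spots. The same shares of all features apply here.

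General neuronal genes gave 4 calls for PVALB-high and 5 for SCN11A-high spots of 12 tested, against 18.3% and 15.4% of all features tested. STMN2, a stathmin of growing axons, stood at 2799 ± 350.1 against 2937 ± 449 CPM (log2 fold change 0.02, edgeR adjusted p 0.850), and TUBB3, neuronal beta-tubulin, at 3188 ± 173 against 3879 ± 487 (-0.18, edgeR adjusted p 0.0720). The paralogues NSG1 and NSG2, proteins of endosome traffic in neurons, went in opposite directions, with log2 fold changes of 2.79 and -1.93. GAP43, a growth cone protein (-1.49), and THY1, a surface glycoprotein of neurons (-0.81), were higher in SCN11A-high spots.

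Sodium pump subunits gave 2 calls for PVALB-high and 4 for SCN11A-high spots of 7 tested, against 18.3% and 15.4% of all features tested. FXYD6, a regulatory subunit, stood at 252 ± 91.3 against 1205 ± 207 CPM (log2 fold change -2.30).

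Nuclear genes of the mitochondrial respiratory chain were higher in PVALB-high spots almost without exception. Of 46 tested, 44 were called higher in PVALB-high and 0 higher in SCN11A-high spots, against 18.3% and 15.4% of all features tested. The median log2 fold change of these genes was 0.67. Their summed level was 38849, 41054, 42133 and 36924 CPM in PVALB-high spots, 25017, 27400.3, 27473 and 24972 in SCN11A-high spots and 27614, 30457, 32590.2 and 28287 in the remaining spots. The kinds of chosen spot did not overlap, and within each code the remaining spots lay between them. By complex, the calls were 24 of 24 genes for complex I (NADH dehydrogenase, median log2 fold change 0.66), 1 of 1 for complex II, 2 of 2 for complex III, 9 of 10 for complex IV (cytochrome c oxidase, median 0.75) and 8 of 9 for complex V (ATP synthase, median 0.61). NDUFA4 stood at 5155 ± 522 against 2558 ± 212 CPM (log2 fold change 1.10, SE 0.08, edgeR adjusted p 1.39e-14), and COX5A (1.14), NDUFB4 (1.14) and ATP5F1B (1.11) were higher by like amounts. The uncalled members were COX7A1 (0.15) and ATP5F1E (-0.06).

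Glycolysis and lactate genes were called higher in PVALB-high spots for 8 of 9 tested, with a median of 0.72, and in SCN11A-high spots for 1. Over all features tested the shares were 18.3% and 15.4%. ALDOC, the brain aldolase, stood at 3143 ± 977 against 731 ± 223 CPM (log2 fold change 2.19), and LDHB, the lactate dehydrogenase chain of oxidative tissue, at 1525 ± 243 against 383 ± 66.6 (2.08). SLC16A1, a monocarboxylate transporter (1.71), and PFKM, the muscle-type phosphofructokinase (1.02), were higher in PVALB-high spots, while PFKL, the liver type, was higher in SCN11A-high spots (-0.54).

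**Figure D4:**
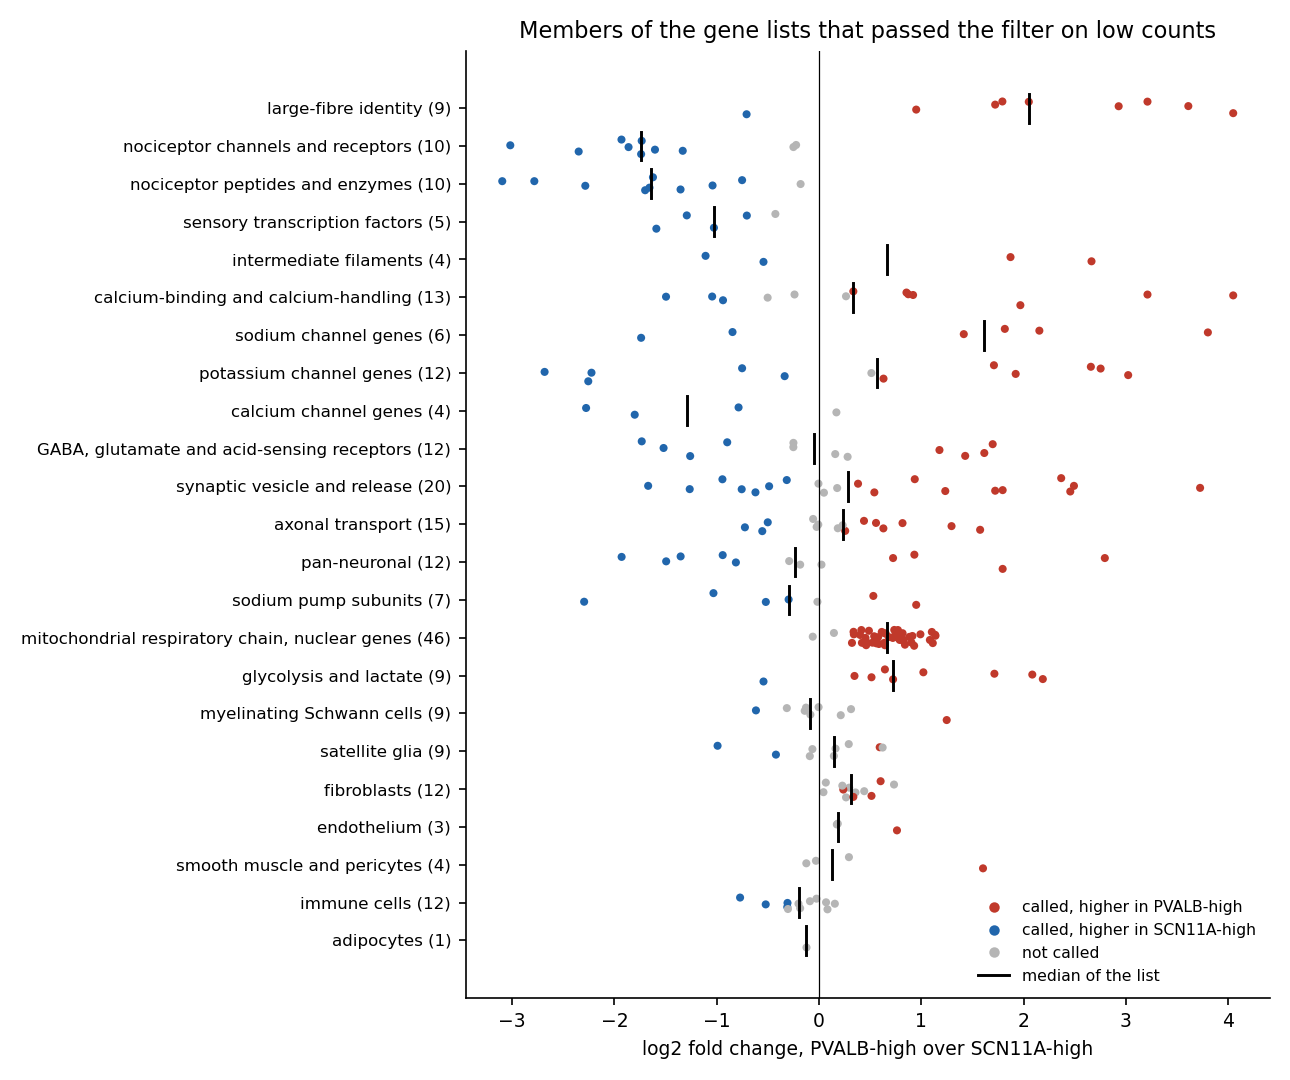
Log2 fold change of PVALB-high over SCN11A-high spots for each tested member of the gene lists, 1 line per list with the number tested in brackets; red and blue points are called higher in PVALB-high and in SCN11A-high spots, grey points are not called and black bars are list medians. The large-fibre list (median 2.05) and the respiratory chain (0.67) lie to the right and the nociceptor lists (-1.74 and -1.64) to the left.

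Markers of other cell types were measured in the same fit, against the 33.7% of all features called. Fibroblast genes, which mark connective tissue, gave 4 calls for PVALB-high and 0 for SCN11A-high spots of 12 tested (median log2 fold change 0.32), and their summed level ranged over the codes from 1558 to 4991 CPM in PVALB-high, 1246 to 3707 in SCN11A-high and 1495 to 6801 in the remaining spots. The called members were LUM, APOD, IGFBP6 and SLC2A1, with log2 fold changes from 0.24 to 0.60, and PDGFRA was at 0 in both. None was called after thinning the chosen spots to 1000 UMIs (0 of 8 tested, median 0.04) or within batch 2 (0 of 4), while 7 of 12 were called within batch 1 and 2 of 12 with library sizes alone as the scaling. Myelinating Schwann cell genes gave 1 call in each direction of 9 tested, DRP2 (1.25) and PMP22 (-0.62), with summed levels of 902 to 2584 CPM in PVALB-high and 1563 to 3486 in SCN11A-high spots and NCMAP at 0 in PVALB-high spots. Satellite glia genes gave 1 and 2 calls of 9, SLC1A3 (0.59) against GLUL (-0.42) and L1CAM (-0.99), the last of which neurons also express. Their sums were 3957 to 5922 and 5461 to 6168 CPM, and FABP7 had a log2 fold change of 0.16 (edgeR adjusted p 0.342). Neither glial list gave a call for PVALB-high spots after that thinning (0 of 3 and 0 of 6 tested) or within batch 2 (0 of 6 and 0 of 8). For SCN11A-high spots they gave 1 of 3 and 1 of 6 after thinning, and 1 of 6 and 2 of 8 within batch 2.

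Immune cell genes gave 0 calls for PVALB-high and 4 for SCN11A-high spots of 12 tested, namely CD74, CD68, C1QC and CD14 with log2 fold changes from -0.77 to -0.31, and summed to 998 to 1939 CPM in PVALB-high and 1273 to 2367 in SCN11A-high spots. Of these immune genes 0 of 5 tested were called after thinning, 0 of 11 within batch 2 and 3 of 10 within batch 1. Of 3 endothelial genes EGFL7 (0.76) was called, and of 4 smooth muscle and pericyte genes MCAM (1.60), an adhesion molecule that neurons can also express. EGFL7 was not called after thinning (0.05) or within batch 2 (0.55). Smooth muscle genes summed to 278 to 542 CPM in PVALB-high and 198 to 279 in SCN11A-high spots, with MYH11 at 0 in both, and endothelial genes to 193 to 264 and 157 to 177, with FLT1 at 0 in PVALB-high and KDR at 0 in SCN11A-high spots. The adipocyte list had 1 tested member, LPL, with no call, summed to 847 to 4207 CPM in PVALB-high and 860.1 to 5331 in SCN11A-high spots, and had PLIN4 and LEP at 0 in both. After thinning the chosen spots to 1000 UMIs, 323 of 2749 features were called higher in PVALB-high and 271 higher in SCN11A-high spots. Of 21 measured large-fibre identity genes 5 could be tested, and 5 were called for PVALB-high spots (median log2 fold change 1.66). Of 17 measured nociceptor peptides and enzymes 7 could be tested, and 6 were called for SCN11A-high spots (-1.37). Respiratory chain genes gave 31 calls for PVALB-high spots of 46 tested (0.60). Most members of the large-fibre and peptide lists fell below the filter, so these counts are not set against those of the other cell types. What part the other cell types have in the neuronal differences was not tested.

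Many list members were too sparse for the test: 176 list memberships, of 173 genes, fell below the filter on low counts. Without that filter, edgeR called 10 of these genes higher in PVALB-high and 8 higher in SCN11A-high spots, where over all 14669 features of that fit 10.2% and 7.87% were called. MRGPRX1, an itch receptor, had 14 UMIs in all PVALB-high and 160 in all SCN11A-high spots (log2 fold change -3.67 in the unfiltered edgeR fit, adjusted p 3.42e-31). TRPA1, the irritant-gated channel, had 3 and 36 UMIs. Over the codes TRPA1 stood at 1.28 ± 1.56 CPM in PVALB-high and 10.7 ± 16.9 in SCN11A-high spots, with PVALB-high above in 1 code. NPPB, an itch peptide, had 4 and 36 UMIs, OSMR, the oncostatin M receptor, 9 and 41, and MRGPRX4, another itch receptor, 6 and 24. WHRN, the scaffold protein whirlin, had 96 and 7 UMIs (3.49, unfiltered edgeR adjusted p 1.24e-15), KCND2, a Kv4 channel, 81 and 9, CALB1, calbindin, 58 and 19, and SYT2, a fast synaptotagmin, 45 and 9. TRPM8, the cold-gated channel, had 8 and 14 UMIs and PENK, the enkephalin precursor, 16 and 14. The sparse genes thus included large UMI ratios in both directions, each resting on few molecules. UMIs summed over the codes do not show whether a single code holds most of them.

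Some further genes were picked after their values were seen and are described only for size. HTR3A, the ionotropic serotonin receptor, stood at 2028, 2073, 1171 and 1171 CPM in SCN11A-high and at 400.1, 447, 201 and 556 in PVALB-high spots (log2 fold change -2.01). RGS4, a regulator of G-protein signalling (-2.11), ANXA1, annexin A1 (-1.76), RBP4, the retinol-binding protein (-2.29), and AVIL, the actin-binding protein advillin of sensory neurons (-2.24), were also higher in SCN11A-high spots. NRG1, the axonal growth factor that governs myelin thickness, stood at 549, 663, 408 and 265 CPM in PVALB-high and at 96.4, 94.7, 76.7 and 53.2 in SCN11A-high spots (2.67), with no overlap. ESRRA, a nuclear receptor that drives mitochondrial genes (2.06), CHCHD10, a mitochondrial protein (1.75), FABP3, a fatty acid-binding protein (1.65), and OTOS, otospiralin (3.19), were higher in PVALB-high spots. Mitochondrial ribosomal protein genes, a family also chosen after values were seen, gave 29 and 1 calls of 54 tested (median 0.42), while cytosolic ribosomal protein genes gave 2 and 1 of 32 (median 0.03). Of all features tested, 18.3% were called higher in PVALB-high and 15.4% higher in SCN11A-high spots.

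The remaining spots place the differences. Against them, 2803 of 8631 features (32.5%) were called in PVALB-high spots, 1428 higher (16.5%) and 1375 lower (15.9%), and 1631 (18.9%) in SCN11A-high spots, 780 higher (9.04%) and 851 lower (9.86%). These comparisons share the remaining spots, so their values are given side by side and not set against each other. In PVALB-high spots the large-fibre list had 8 members called higher than in remaining spots and 0 lower (median 1.75), and in SCN11A-high spots 1 higher and 6 lower (median -0.87). Of the nociceptor channels and receptors, 10 of 10 were called lower in PVALB-high spots (median -1.21), while in SCN11A-high spots 5 were higher and 2 lower (median 0.54). The respiratory chain had 44 of 46 higher and 0 lower in PVALB-high spots (median 0.51) and 0 higher and 14 lower in SCN11A-high spots (median -0.15).

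For single genes, too, the difference between these comparisons was not tested. ETV1 had log2 fold changes against the remaining spots of 1.75 in PVALB-high and -0.05 in SCN11A-high spots (edgeR adjusted p 2.17e-16 and 0.901). NEFH was 0.97 and -1.67, and SCN4B 0.65 and -0.74. TRPV1 was -1.42 and 0.35, and SCN9A -1.41 and 0.34 (edgeR adjusted p 0.0976 and 0.177 in SCN11A-high spots). Neither was therefore among the 5 nociceptor channels and receptors called higher in SCN11A-high than in remaining spots. TAC1 was -1.14 in PVALB-high and -0.08 in SCN11A-high spots (edgeR adjusted p 0.650 for the latter), with 907 ± 267 CPM in SCN11A-high and 968 ± 294 CPM in the remaining spots. ASIC3 (-1.18 and -0.91) was lower in both kinds. Fibroblast genes were lower in both kinds as well, 12 of 12 in each, with medians of -0.61 and -1.01, and Schwann cell genes in 7 and 6 of 9.

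The same genes were then measured in remaining spots that touch chosen spots. These spots were eligible and lay below both thresholds, so the rule used their PVALB and SCN11A levels but no other gene. A total of 1465 remaining spots touched at least 1 PVALB-high and no SCN11A-high spot, and 1685 the reverse. These neighbours still differed in the markers themselves. PVALB stood at 398 ± 126 CPM beside PVALB-high and 203 ± 90.5 beside SCN11A-high spots, and SCN11A at 248 ± 96.7 and 376.5 ± 131. Of 9687 features, 687 (7.09%) were called between these neighbours, 385 higher beside PVALB-high (3.97%) and 302 higher beside SCN11A-high spots (3.12%). Of these, 608 had also been called between the chosen spots, which is 88.5% of the neighbour calls and 23.4% of the calls between chosen spots, and 607 had the same direction. With only spots at least 3 steps from the tissue edge, an alternative chosen after seeing the data, 409 features were called between neighbours.

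Fold changes beside the chosen spots were smaller. Of the 12 named PVALB-high genes, 10 were called in the same direction beside them, CALB2 at 1.29 against 4.05 and PTH1R at 0.94 against 4.22 on the log2 scale, and CNTNAP4 (0.62, edgeR adjusted p 0.164) and PRSS56 (0.74, edgeR adjusted p 0.114) were not called. All 12 named SCN11A-high genes were called in the same direction beside them, PRKCD at -0.78, FAM3B at -0.76 and SYNPR at -0.57. CALB2 stood at 52.8, 69.9, 78.9 and 25.5 CPM beside PVALB-high spots and at 20.8, 20.4, 43.3 and 12.8 beside SCN11A-high spots, so neighbours differed in each code while the ranges overlapped. By list, 8 of 15 large-fibre genes were higher beside PVALB-high spots and 0 beside SCN11A-high spots, 0 and 7 of 15 nociceptor channels and receptors, 0 and 9 of 11 nociceptor peptides and enzymes, and 19 and 0 of 46 respiratory chain genes. Fibroblast genes were higher beside PVALB-high spots for 6 of 13 and beside SCN11A-high spots for 0, among them MGP (1.12) and SFRP4 (0.68). PIEZO2 was not called (0.10, edgeR adjusted p 0.755).

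**Figure D5:**
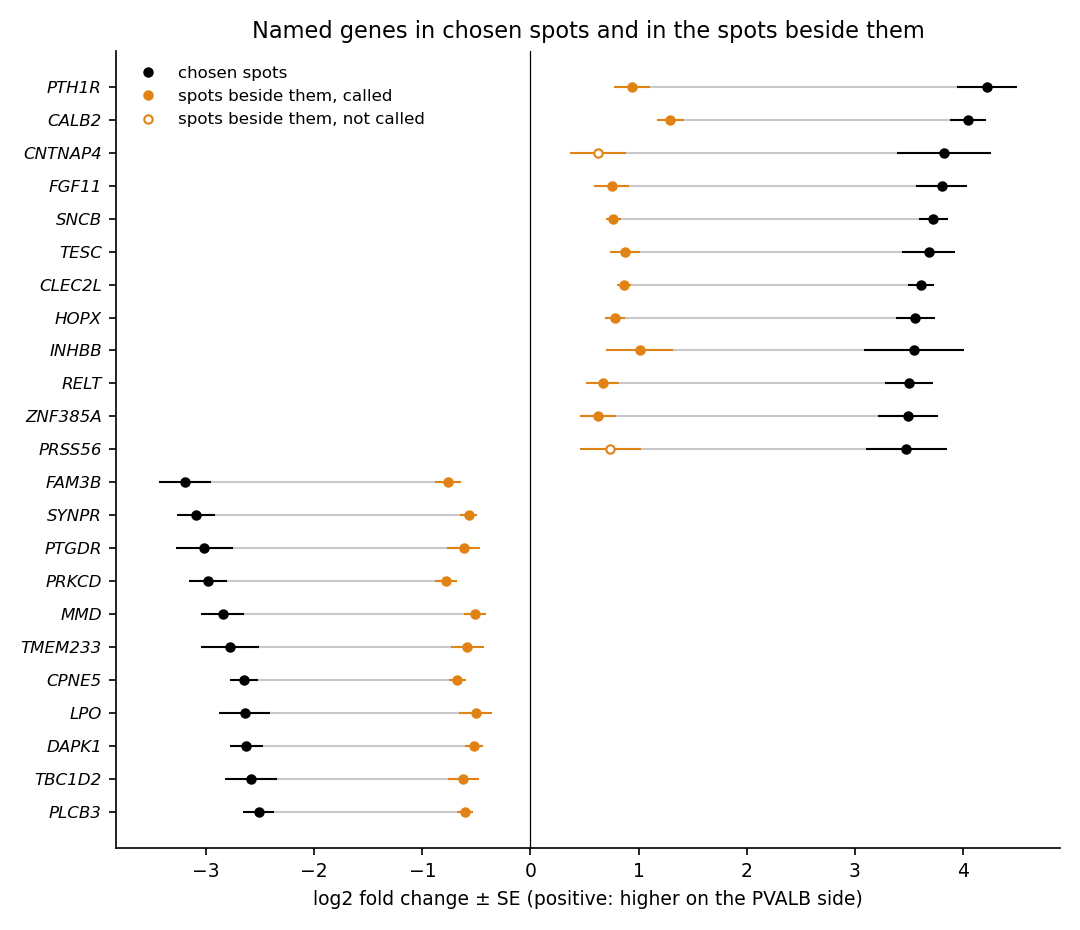
Log2 fold changes with standard errors for named genes between the chosen spots (black) and between the remaining spots that touch them (orange, filled where called and open where not). Every neighbour value lies on the same side of 0 as the value of the chosen spots and nearer to 0, from 1.29 for CALB2 to -0.78 for PRKCD.

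The difference between the kinds of spot was compared between batches and sexes. In the batch test of edgeR, 4 of 7717 features (0.0518%) had an adjusted p under 0.05 and 546 an unadjusted p under 0.05. The signed log2 fold change, PVALB-high over SCN11A-high, was higher in batch 2 for 3 of them (0.0389%) and in batch 1 for 1 (0.013%). RAMP3, an accessory protein of calcitonin-family receptors, stood at 702, 848, 771 and 496 CPM in PVALB-high and at 420, 409, 176 and 129 in SCN11A-high spots, so the difference was wider in batch 2 by 1.16 on the log2 scale (SE 0.20, edgeR adjusted p 0.00259). SEMA7A, a membrane-anchored semaphorin, stood at 235, 273, 264 and 256 CPM in PVALB-high and at 320, 312, 144 and 182 in SCN11A-high spots, higher in SCN11A-high spots in batch 1 and in PVALB-high spots in batch 2. NCAM1, the neural cell adhesion molecule, and SOD2 were the others, and for both the difference between the kinds of spot was narrower in batch 2. The count ran from 0 to 9 with 1 section left out. It was 0 without section 3 of female batch 1 or section 4 of female batch 2, 1 without section 4 of female batch 1, section 3 of male batch 1, section 1 of female batch 2 or section 2 of male batch 2, 2 without section 4 of either male code, and 9 without section 1 of male batch 2. In the sex test of edgeR, 0 of 7717 features were called, with 211 at an unadjusted p under 0.05. With 1 code per sex and batch, other differences between specimens cannot be told apart from either.

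Spatial autocorrelation had been computed by the submitters for 16 M. fascicularis sections. In the authors' deposited table, Moran's I, which is above 0 where neighbouring spots resemble each other, ran for PVALB from 0.0207 to 0.238 with a median of 0.0897 over sections. For SCN11A it ran from 0.0241 to 0.500 (0.4998 unrounded) with a median of 0.112 in the authors' deposited table. Section medians over all features lay between -0.0012 and 0.0168 in the authors' deposited table, so both marker genes were above them in every section. In the authors' deposited table, medians were 0.0014 to 0.0633 for the 12 named PVALB-high genes and 0.0043 to 0.0832 for the 12 named SCN11A-high genes, and 0.283 for NEFH and 0.306 for PRPH.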

How the data were processed

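Visium libraries from dorsal root ganglion sections were analysed from the deposited count matrices. Per the file headers, the authors made these UMI counts with Space Ranger 2.0.0 for 8 sections and 2.1.0 for 7, which are the sections of batch 1 and batch 2. The submitters' processing notes name the build Mmul_10 while the features carry M. fascicularis identifiers, so no coordinates are given. The matrices list 22000 features, 15068 with a symbol, and names were used as deposited. Moran's I is a score per gene and section in the authors' deposited table.

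Spots were chosen by the rule given above, and raw counts were summed per title code and kind of spot. The kinds were compared with edgeR 4.0.16 (R 4.3.3) by glmQLFit and glmQLFTest with TMM factors, filterByExpr, the code as a block and Benjamini-Hochberg adjustment. Standard errors were derived from the fold change and the F statistic. Both kinds of spot come from the same sections, which is the source of the pairing. Batch and sex entered as interactions with the kind of spot. Section counts within a code differed beyond sampling noise in all 21 pairs (lowest chi-square per degree of freedom 3.93), so none was a repeat deposit. On simulated counts, 81% of 2-fold and 100% of 4-fold changes were recovered for the comparison of 7719 features, with 0.16% false calls. The simulation gave every gene the same dispersion, set no difference between codes and changed 200 genes. It shows that the fit recovers set changes under these settings and gives no error rate for the real data. Spot measures were averaged over sections and codes and tested by exact sign flips.

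The named genes were the 12 per direction with the largest fold change among called genes with a symbol, the same direction in 4 of 4 codes and at least 20 CPM. The kinds of spot, the gene lists and the rules were chosen with earlier results of these data known. Alternatives were other scaling (DESeq2 1.42.0 size factors, library size), no filter, DESeq2's Wald test, limma-voom (limma 3.58.1), no block, sections as blocks, other UMI minima (500 and 2000) and percentiles (90 and 97.5), at least 2 marker UMIs, no UMI of the other marker, thinning to 1000 UMIs, each batch alone, and each section or code left out. Distance from the tissue edge was added after seeing the data. Some genes that met the rule or belong to a list are counted but not reported here by name.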

Additional observations from a re-analysis of the deposited data

Results flagged for a closer look

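Among 92 groups of 4 codes tested with Dixon's criterion, 6 held a code that stood apart, and chance flags about 1 in 20 groups. In PVALB-high spots the male batch 2 code was lowest for FGF11, at 41.1 CPM against 90.9 to 93.7 in the others, and for CPNE5, at 31.6 against 41.2 to 43.0. The same code was highest in PVALB-high spots for SCN9A, at 44.2 CPM against 5.86 to 10.5, and for SCN4B, at 901 against 630 to 665. In SCN11A-high spots the female batch 2 code was highest for LPO, at 132 CPM against 39.9 to 54.5, and for PRPH, at 4930 (4929.7) against 3739 to 3907.

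The log2 difference between PVALB-high and SCN11A-high spots differed between batches for 4 genes by edgeR's interaction test with Benjamini-Hochberg adjustment. Batch 2 minus batch 1 was 1.16 for RAMP3 (adjusted p 0.00259), 1.04 for SEMA7A (0.0149), 0.90 for NCAM1 (0.0175) and -0.88 for SOD2 (0.0149). NCAM1 stood at 297, 278, 271 and 338 CPM in PVALB-high and at 838, 801, 411 and 506 in SCN11A-high spots. SOD2 stood at 419, 334, 400.2 and 3581 CPM in PVALB-high and at 220.04, 153, 346 and 3287 in SCN11A-high spots, with male batch 2 high in both.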

How the results depend on the processing

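The comparison of PVALB-high with SCN11A-high spots called 2597 features as reported. It called 1448 by DESeq2's Wald test, 962 within batch 2, and 497 and 594 with spots thinned to 1000 UMIs before and after they were chosen. Without the code as a replicate block it called 1086, all among the 2597, and with sections as replicate blocks 1968, of which 1703 were shared. Other scaling, no filter on low counts, limma-voom, other UMI minima and percentiles, stricter marker rules, the distance from the edge (added after seeing the data) and batch 1 alone gave 1951 to 3142, and leaving out a section or a code gave 1854 to 2776. Fewer UMIs (thinning) or fewer codes (batch 2) entered some of these fits, and for the Wald test the cause was not tested. The neighbour comparison gave 687 calls, 409 away from the edge, and 506 to 762 with a section left out, and the comparisons with remaining spots 2325 to 2847 (PVALB-high) and 1377 to 1658 (SCN11A-high). The batch test gave 4 calls, 7 without the filter and 0 to 9 with a section left out, and the sex test 0, 2 without the filter and 0 to 1. Of 265 genes, 4 changed sign in 1 alternative each, for which the cause was not tested: S100A8 to -1.53 without the male batch 2 code (-1.53 to 0.24 over the sections and codes left out), IGFBP6 to -0.15 thinned after choosing, EGFL7 to -0.0102 thinned before, and KCNIP2 to 0.37 within batch 2. Of the 24 named genes, only PTGDR within batch 2 lost its call in the alternatives that could test it. Depth limits the sparse channels and receptors, and male batch 2 is the shallowest code.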
